A study of Arabidopsis thaliana with 18 samples.

Results

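PPR336 (locus AT1G61870) encodes a pentatricopeptide repeat protein of the mitochondrion, and its leaf mRNA level was followed here through wounding in Arabidopsis thaliana with and without over-expression of StZFP2, a potato gene for a zinc finger protein. The gene was chosen by 2 conditions. The title of its feature in the platform annotation had to contain the word pentatricopeptide, and its signal had to lie at or above the 60th percentile of the array on 3 or more of the 18 arrays. Of 22746 features that are not controls, 2 carried the word in the title and 1 met both conditions. The annotation gives a blank title to 15200 of the 22746 features (66.8%), so the title word does not find most genes of the family. The conditions therefore describe 1 gene, PPR336, and not a group of pentatricopeptide repeat genes. To place PPR336 within its family, 71 loci of pentatricopeptide repeat proteins were listed from general knowledge. Of these, 66 had a feature on the array and 47 of the 66 had a blank title.

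Pentatricopeptide repeat proteins are built from tandem degenerate helical motifs that bind RNA in a sequence-specific way, and land plants have a large family of them. Nearly all act in mitochondria or chloroplasts, where they edit, splice, cleave or stabilise organelle transcripts or help to translate them. PPR336 is known in Arabidopsis as a small member that associates with mitochondrial ribosomes. The other titled gene, PPR40 (AT3G16890), encodes a mitochondrial protein that is associated with complex III of the respiratory chain and has been linked to oxidative stress tolerance. The platform annotation places PPR336 in the mitochondrion, the mitochondrial inner membrane and membranes, and PPR40 in the mitochondrion. The sources used here name no genome build for the array, so positions are given by locus only.

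The samples were 18 Affymetrix ATH1 arrays of leaf RNA, 3 per group, lettered A, B and C. Leaves came either from Col-0, the wild type, or from OE, which the sample labels give as a pool of the StZFP2 over-expressing lines OEEV47-1 and OEEV47-2, whereas the series design names the lines separately. Each genotype was sampled unwounded (control), 1 h after wounding and 6 h after wounding. The series asks how StZFP2 over-expression affects the wound response. The sources used here do not name the promoter of the transgene, the age of the plants or whether the replicates were separate plants, so the p-values describe the scatter among these arrays, some of which may be technical. The array carries no feature for the potato transgene, and its level was therefore left unchecked. No unwounded group at 6 h is given, so at that time wounding cannot be told apart from time of day.

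Each array had been scaled by the authors to a trimmed mean signal of 500, array medians ran from 127 to 161, and precision is limited by how many arrays there are. The leaf markers RBCS1A, LHCA1 and RCA lay at percentiles of 99.9 to 100 (rounded) on all 18 arrays, while the root markers EXPA7 and PLT1 and the flower markers AP3, PI and SEP3 did not reach the 40th percentile on any array. The root markers COBL9 and TIP2;3 reached it on 4 arrays each and the flower marker AG on 3. Log2 signals within a group correlated at 0.946 to 0.977 in Col-0 and at 0.890 to 0.983 in OE. None of the 9 Col-0 arrays (0), but 6 of the 9 OE arrays, had their highest correlation with an array that carries a different treatment label. Contrasts within Col-0 were therefore fitted to the 9 Col-0 arrays alone, and results that rest on OE arrays are also given without those 6. What remains of OE is control arrays A and B and 6 h array A, so OE at 6 h is then 1 array, which the fit assumes to vary like the other groups. In bulk leaf RNA, fewer cells of a type and less RNA per cell cannot be told apart.

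PPR336 was measured clearly on every array. Its signal reached the 60th percentile on 18 of 18 arrays, at percentiles from 67.3 to 81.9. Over the 18 arrays its signal ran from 366 to 780, with a median of 530.1, a 2.13-fold range. The third-highest percentile, the value that decided membership, was 79.9 for PPR336 and 40.9 for PPR40, which reached the 60th percentile on 0 arrays and the 40th on 3. These values chose the gene and are given as a description. The SD of PPR336 over the 18 arrays was 0.32 on the log2 scale, against a median of 0.35 for the 14838 features that passed the filter on low signals, and 44.3% of those features varied less. Its SD within groups was 0.25, against a median of 0.28.

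In unwounded Col-0 leaves the PPR336 signal was 537 on array A, 567 on B and 596 on C. At 1 h after wounding it was 684, 630 and 445. At 6 h after wounding it was 366, 411 and 384. The 6 h arrays all lay below the 6 arrays of the other Col-0 groups, with no overlap, and the 1 h arrays lay on both sides of the controls. The group means were 567 ± 29.1 (SD, n = 3) in the controls, 587 ± 126 (SD, n = 3) at 1 h and 387 ± 22.7 (SD, n = 3) at 6 h.

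In the unwounded OE leaves the PPR336 signal was 448, 483 and 436 on arrays A, B and C, below all 3 Col-0 controls and above all 3 Col-0 arrays at 6 h. In OE leaves at 1 h it was 780, 536 and 605, all above the OE controls. In OE leaves at 6 h it was 524, 706 and 406, on both sides of the OE controls. The group means were 456 ± 24.0 (SD, n = 3), 640 ± 125 (SD, n = 3) and 545 ± 152 (SD, n = 3), and the SD was larger in both wounded OE groups than in the OE control. Ordered by mean, PPR336 was highest in OE at 1 h, followed by Col-0 at 1 h, Col-0 control, OE at 6 h, OE control and Col-0 at 6 h. Only the lowest neighbours in this order, OE control and Col-0 at 6 h, did not overlap.

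**Figure D1:**
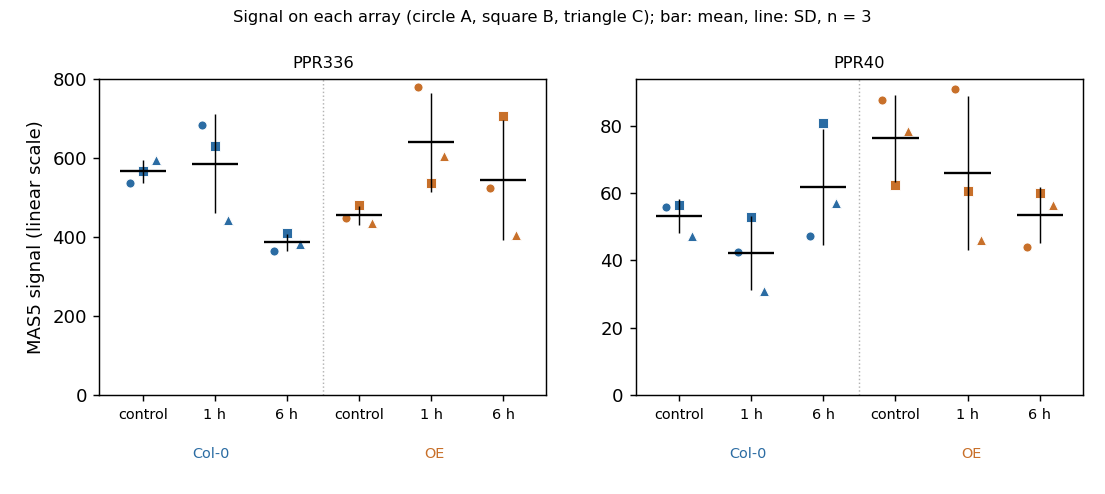
MAS5 signal (linear scale, from 0) of PPR336 and PPR40 on each of the 18 arrays, by genotype and treatment, with the group mean as a bar and the SD as a line (n = 3). PPR336 in Col-0 at 6 h lies between 366 and 411, below every other Col-0 array, while all PPR40 signals lie between 30.9 and 90.8.

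PPR336 fell in Col-0 leaves between the control and 6 h. The log2 change was -0.55 ± 0.16 (SE), which is 0.682 of the control level, with an adjusted p of 0.0246 (limma, two-sided, Benjamini-Hochberg over 14838 features) and all 3 arrays lower. In this comparison 13.6% of the features tested were called lower and 15.3% higher at an adjusted p below 0.05. The call was lost when the same contrast was fitted to all 18 arrays (adjusted p = 0.0676). It was also lost without Col-0 control array B (0.063), control array C (0.0616), 6 h array A (0.0815) or 6 h array C (0.0619), with the log2 change between -0.55 and -0.51.

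Against the 1 h arrays PPR336 was also lower at 6 h. The log2 change was -0.58 ± 0.16 (SE), to 0.67 of the 1 h level, with an adjusted p of 0.0135 by limma. The 6 h arrays are shared with the comparison against the control. Here 17.2% of the features were called lower and 25.4% higher, and the median log2 change over all features was 0.13. Relative to that median, PPR336 changed by -0.71. The call was lost without 1 h array A (log2 change -0.46, adjusted p = 0.0579) or 1 h array B (-0.51, adjusted p = 0.055).

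At 1 h after wounding PPR336 did not pass the test in Col-0. The log2 change was 0.03 ± 0.16 (SE), with an adjusted p of 0.948 by limma, while 5.84% of the features were called in either direction and 2.2% were called lower. The groups overlapped. The sign turned negative when Col-0 control array A, 1 h array A or 1 h array B was left out.

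RNA quality and markers of other cells were measured on the same arrays. The ratio of the 3' to the 5' control features of actin ranged from 16.2 to 23.9 in the Col-0 controls, while the 1 h arrays had 23.4 to 45.02 and the 6 h arrays 18.6 to 27.5. The summed signal of 4 guard cell markers ranged from 598 to 940 in the Col-0 controls, then from 615 to 695 at 1 h and from 1184 to 1423 at 6 h, and 1 of the 4, KAT1, was called higher at 6 h against both other groups. KAT1 also had a negative interaction at 6 h that was called, and KAT1 and MYB60 were called higher in OE than in Col-0 over all conditions. Of the 3 leaf markers, LHCA1 was called higher at 6 h against 1 h. In that contrast 6 of 25 listed genes with a chloroplast term (24.0%) were called higher, beside 25.4% of all features. The lowest of the 4 guard cell markers, GORK, was at or above the 40th percentile on 8 of 18 arrays and at 0 on none. The part of these in the changes of PPR336 and of the listed genes was not tested. The summed signal of 3 phloem markers, 9159 to 12674 in the controls and 9209 to 11353 at 6 h, had 0 called members (limma, adjusted p below 0.05).

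PPR336 was not called between genotypes. Over all conditions the log2 difference of OE from Col-0 was 0.09 ± 0.11 (SE), with an adjusted p of 0.658 by limma, where 4.79% of the features were called in either direction. Without the 6 OE arrays of doubtful treatment label, and with no term for treatment, the difference of the remaining 3 OE arrays from the 9 Col-0 arrays, 1 h included, was -0.052 (adjusted p = 0.917).

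Within OE, PPR336 was higher at 1 h than in the control on all 3 arrays, but the change did not pass the test. Its log2 value was 0.47 ± 0.20 (SE), with a limma p of 0.0297 and an adjusted p of 0.288. No feature was called in this comparison (0.0%, limma), while 2332 had an unadjusted p below 0.05. Without OE control array C, 743 features were called higher and 847 lower. PPR336 was called in no fit with 1 array left out (limma, adjusted p of at least 0.138). At 6 h the log2 value against the OE control was 0.22 ± 0.20 (SE), with an adjusted p of 0.591, and 0.0135% of the features were called. Without the 6 OE arrays the value was 0.17 and rests on 1 OE array at 6 h. No OE array at 1 h remains without those 6, so no such value exists at 1 h.

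The log2 change of PPR336 at 6 h was negative in Col-0 and positive in OE, and the test of that difference did not pass the threshold in the fit to all 18 arrays. The interaction, the OE response minus the Col-0 response, was 0.78 ± 0.28 (SE) on the log2 scale with a limma p of 0.0141 and an adjusted p of 0.0561. Of all features, 10.1% were called with a positive and 13.1% with a negative interaction at 6 h. The adjusted p fell to 0.0455 after quantile normalization and to 0.0448 with a filter at the 60th percentile. It was 0.0454 without Col-0 1 h array C and 0.00906 without OE 6 h array C (log2 value 0.97), and rose to as much as 0.157 with another array left out, the highest without OE 6 h array B (log2 value 0.57). Without the 6 OE arrays the log2 value was 0.72 and rests on 1 OE array at 6 h (adjusted p = 0.0556). At 1 h the interaction was 0.45 ± 0.28 (SE), with an adjusted p of 0.587, where 0.0% of the features were called by limma and 1497 had an unadjusted p below 0.05. Without OE control array C, 242 features were called with a positive and 174 with a negative interaction at 1 h. For PPR336 the adjusted p at 1 h was at least 0.448 with any 1 array left out.

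PPR40, the titled gene outside the conditions, was dim, with mean signals from 42.1 ± 10.98 (SD, n = 3) in Col-0 at 1 h to 76.2 ± 12.8 (SD, n = 3) in the OE control. It passed the filter on low signals on 3 arrays only and was called in 0 of 8 limma contrasts, in which the unadjusted p was at least 0.109. Its log2 change at 6 h in Col-0 was 0.18 ± 0.39 (SE), with an adjusted p of 0.766. The difference of OE from Col-0 over all conditions was 0.32 ± 0.19 (SE), with an adjusted p of 0.323. The signals of both groups overlapped in each of the 3 Col-0 contrasts.

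Among the 66 measured pentatricopeptide repeat genes of the list, 36 passed the filter on low signals and 30 did not and were not tested. The 36 include PPR336 and PPR40, and 25 of them carry a chloroplast term in the annotation, 6 a mitochondrion term and 7 neither, with some under both terms. At 6 h against the control in Col-0, 3 of the 36 rose (8.33%), 1 fell (2.78%) and 32 did not pass the test. The median log2 change of the 36 was 0.05, against 0.04 over all features tested. PPR336 had the lowest log2 change of the 36. The shares called were smaller than the 15.3% and 13.6% of all features. Without Col-0 control array B, 5 of the 36 rose and 0 fell, beside 1840 and 1539 of all 14838 features. The share that rose was then not below that of all features. Without 6 h array A 0 fell, beside 1538 of all features.

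The genes that rose were LPA66, OTP84 and AT4G18520. LPA66, a chloroplast editing factor for the psbF transcript, had signals of 260, 261 and 309 in the controls and 432, 435 and 407 at 6 h. Its log2 change was 0.62 ± 0.15 (SE), and its adjusted p was 0.00927 by limma. OTP84, an editing factor for several chloroplast transcripts, had 164, 95.3 and 99.4 in the controls and 201, 199 and 226 at 6 h. In both genes every 6 h array lay above every control array, which was a condition for naming them. The log2 change of OTP84 was 0.85 ± 0.24 (SE), with an adjusted p of 0.019, and its call was lost with all 18 arrays and without control array B, control array C or 6 h array C (adjusted p of at most 0.0752). AT4G18520, whose symbol the reference table does not give, had signals of 62.8, 17.0 and 55.8 in the controls, all below the 40th percentile, and 205, 274 and 235 at 6 h. It was at least 3.04-fold higher at 6 h, with an adjusted p of 0.00117 by limma, and it reached the 40th percentile on 9 of 18 arrays.

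At 1 h against the control, 0 of the 36 rose and 1 fell (2.78%), beside 541 of all 14838 features called higher and 326 (2.2%) called lower. LPA66 had 157, 166 and 205 at 1 h, below all 3 controls, a log2 change of -0.66 ± 0.15 (SE) with an adjusted p of 0.0259 by limma. That call was lost with all 18 arrays (adjusted p = 0.136), with array medians subtracted, and without control array B, control array C, 1 h array A or 1 h array B (adjusted p of at most 0.104 in these 4). The median log2 change of the 36 genes was -0.16, against -0.09 over all features, and 25 of the 36 were below 0. An unadjusted p below 0.05 was found for 3 of the 36, beside 3109 of all 14838 features.

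Between 1 h and 6 h, 7 of the 36 rose (19.4%), 3 fell (8.33%) and 26 did not pass, and both shares were below the 25.4% and 17.2% of all features. The median log2 change was 0.24, against 0.13 over all features. With array medians subtracted, 3 rose in place of 7, beside 2489 of all 14838 features in place of 3769. Of the 25 genes with a chloroplast term 6 rose and 0 fell, and of the 6 with a mitochondrion term 0 rose and 2 fell. The difference between these compartments was not tested.

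The genes that fell were PPR336, PNM1 and GRP23. PNM1, known as a protein of both mitochondria and nucleus, had signals of 454, 584 and 590 at 1 h and 320, 336 and 419 at 6 h, with 470, 516 and 409 in the controls. Its log2 change was -0.60 ± 0.16 (SE), with an adjusted p of 0.0111 by limma. GRP23, a glutamine-rich member needed for early embryo development, had 164, 149 and 151 at 1 h and 75.6, 95.3 and 107 at 6 h. The 6 h arrays lay below all 1 h arrays in both genes, again a condition for naming them. The log2 change of GRP23 was -0.75 ± 0.23 (SE), with an adjusted p of 0.0201. Against the control, the values at 6 h were -0.38 ± 0.16 (SE) for PNM1 (adjusted p = 0.105) and -0.43 ± 0.23 (SE) for GRP23 (adjusted p = 0.192). The call of GRP23 between 1 h and 6 h was lost without 1 h array A or 6 h array A (adjusted p of at most 0.0766) and with no filter, while PNM1 kept its call with every array left out in turn. Without 1 h array A, 1 of the 36 fell between 1 h and 6 h, beside 2324 of all 14838 features.

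The genes that rose between 1 h and 6 h were LPA66, OTP84, RARE1, OTP51, PGR3, AT3G22150 and AT4G18520. LPA66 rose by 1.28 ± 0.15 (SE) on the log2 scale and OTP84 by 1.10 ± 0.24 (SE), with adjusted p-values of 3.6e-05 and 0.00283 by limma. RARE1, an editing factor for the chloroplast accD transcript, had signals of 32.5, 71.8 and 51.5 at 1 h and 116, 93.1 and 122 at 6 h, a log2 change of 1.15 ± 0.38 (SE). OTP51, needed to splice a ycf3 intron in chloroplasts, had 271, 255 and 245 at 1 h and 454, 415 and 350 at 6 h. PGR3, which stabilises chloroplast petL transcripts, had 601, 621 and 658 at 1 h and 844, 855 and 888 at 6 h. Its log2 change of 0.46 ± 0.12 (SE) was the smallest of the 7, and that of OTP51 was 0.65 ± 0.18 (SE). In all 7 genes the 6 h arrays lay above the 1 h arrays, again a condition for naming them. The share of all features without overlap between groups was not counted in any contrast. AT3G22150, given by locus because the reference table holds no symbol for it, had a log2 change of 0.76 ± 0.24 (SE). Single arrays decided 3 of the 7 calls: RARE1 was lost without 1 h array A or C or 6 h array A or C (adjusted p of at most 0.0956), AT3G22150 without 1 h array A or C or 6 h array B or C (at most 0.103), and OTP51 without 6 h array A (0.0524).

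**Figure D2:**
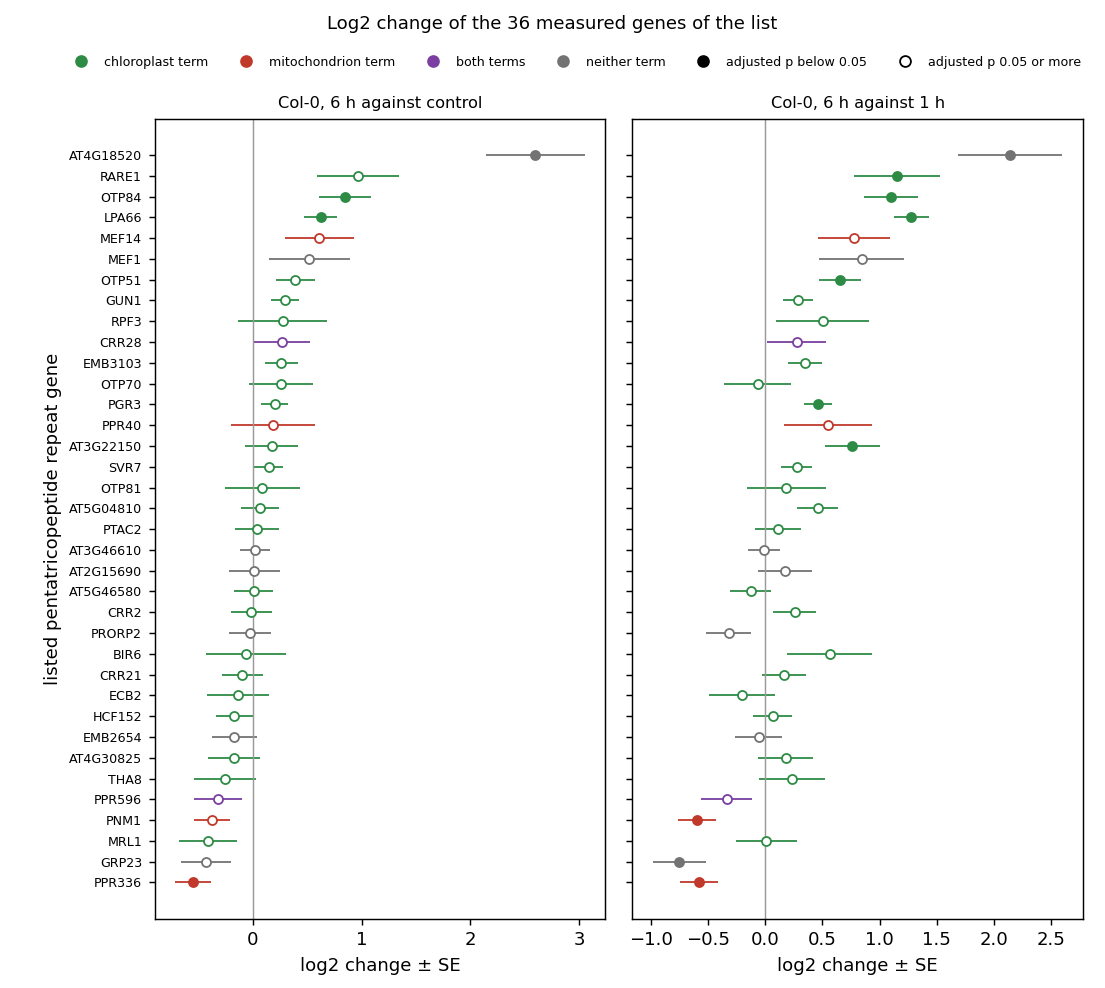
Log2 change with its standard error for the 36 listed pentatricopeptide repeat genes that passed the filter on low signals, in Col-0 at 6 h against control (left) and against 1 h (right), coloured by annotated compartment, with filled points at an adjusted p below 0.05. PPR336 is the lowest gene on the left at -0.55, and on the right GRP23, PNM1 and PPR336 are the filled points below 0.

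The other listed genes of the family were called in no contrast between genotypes over all conditions. Of the 36, 0 were called by limma between OE and Col-0, and 5 had an unadjusted p below 0.05, beside 4.79% called and 3367 of 14838 with such a p among all features. Within OE, 0 were called at 1 h and 0 at 6 h, with an unadjusted p below 0.05 for 4 and 6 genes. Of all 14838 features, 0 and 2 were called there, with such a p for 2332 and 2083. Without OE control array C, 743 features were called higher and 847 lower at 1 h. Without OE 6 h array C, 1086 were called higher and 1438 lower at 6 h. For the interaction at 1 h, 0 of the 36 were called and 0 had an unadjusted p below 0.05, beside 0 and 1497 of all features. Without OE control array C, 242 features had a positive and 174 a negative interaction at 1 h that was called. In these fits without 1 array the listed genes were not counted.

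At 6 h, 5 of the 36 (13.9%) had a negative interaction that passed the test and 0 a positive one, beside 13.1% and 10.1% of all features, so the negative share was near the background. They were OTP51, OTP84, RARE1, LPA66 and AT4G18520, and the sign of the interaction of PPR336 was opposite to theirs. OTP84 signals were 210, 242 and 162 in the OE control and 102, 85.6 and 216 at 6 h, so 2 of the 3 OE arrays at 6 h lay below the OE controls and the 6 h array C lay among them. LPA66 signals were 425, 399 and 350 in the OE control and 236, 235 and 347 at 6 h, all below the OE controls. The interaction of LPA66 was -1.16 ± 0.23 (SE) on the log2 scale, with an adjusted p of 0.00943 by limma. The interactions of OTP51 and OTP84 were -1.05 ± 0.23 (SE) and -1.55 ± 0.42 (SE). The number called negative was 2 without OE control array B, OE 6 h array A or OE 6 h array B. In these fits 874, 762 and 720 of all 14838 features were called negative. LPA66 and OTP51 passed with every array left out in turn. The interactions share their OE and Col-0 control arrays with the contrasts above.

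**Figure D3:**
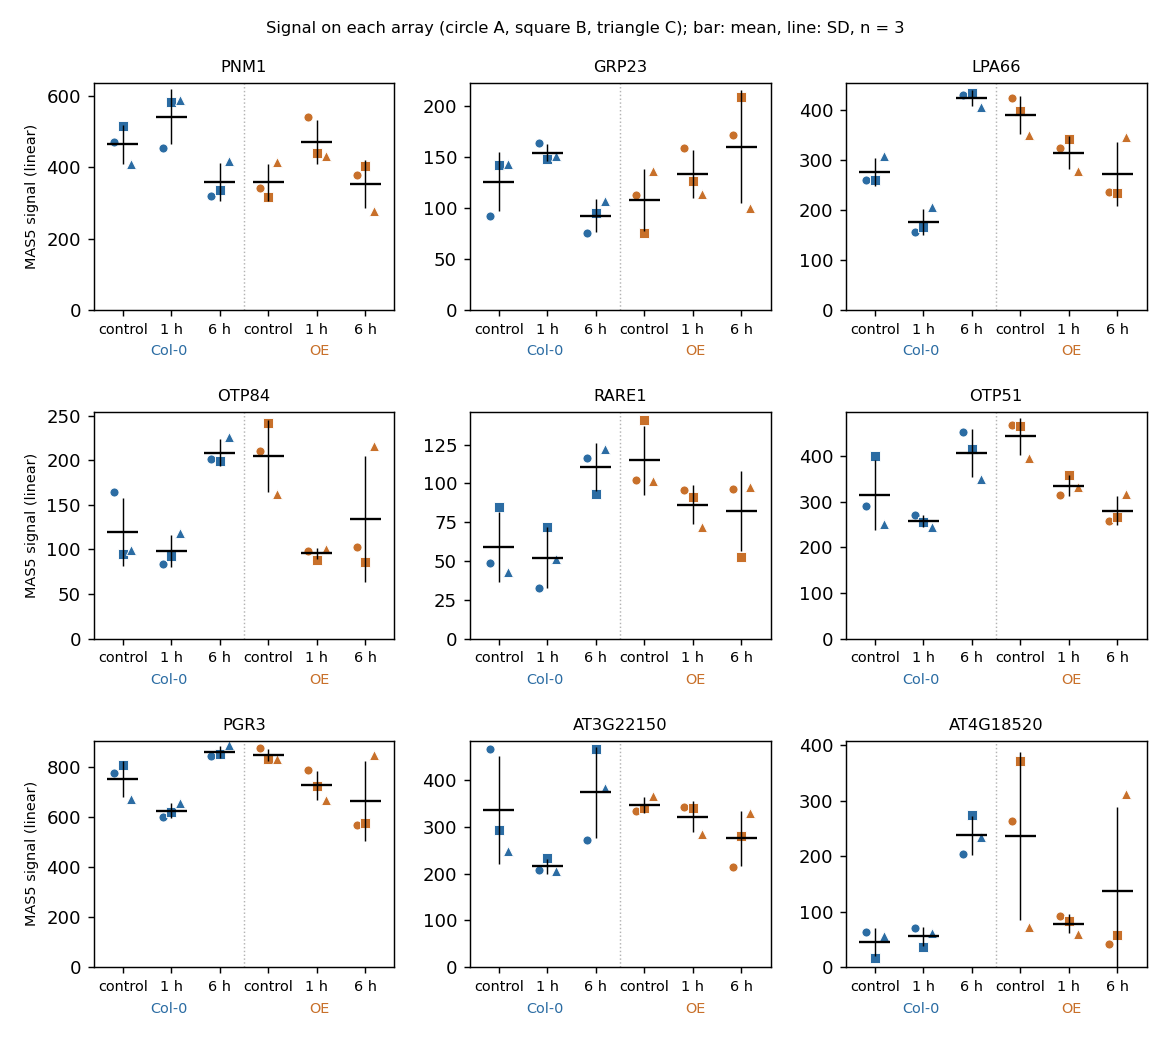
MAS5 signal (linear scale, from 0) on each array of the 9 listed pentatricopeptide repeat genes other than PPR336 that were called in any Col-0 contrast, by genotype and treatment, with mean and SD (n = 3). PNM1 and GRP23 are lower at 6 h than at 1 h in Col-0, and the other 7 genes are higher.

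Genes that work with pentatricopeptide repeat proteins in organelle RNA metabolism were taken from 7 further lists of 57 genes, of which 53 had a feature that passed the filter. At 6 h against the control in Col-0, 7 of the 53 rose and 4 fell, beside 15.3% and 13.6% of all features. SIG5, a stress-responsive chloroplast sigma factor, fell by 2.02 ± 0.26 (SE) on the log2 scale. MGP3 (AT1G68990), a mitochondrial RNA polymerase, had signals of 280 to 318 in the controls and 109 to 179 at 6 h, a log2 change of -1.09 ± 0.20 (SE). Of 5 splicing factors with a CRM domain, CAF2 (0.73 ± 0.20) and CFM2 (0.81 ± 0.17) rose and CAF1 (-0.43 ± 0.15) fell, as log2 changes with SE. The call of CAF2 was lost without 6 h array B (adjusted p = 0.0585), and that of CAF1 in 8 of the 9 fits with 1 array left out. PTAC6, a protein of the plastid polymerase complex, rose by 1.26 ± 0.17 (SE). Of 7 MORF proteins, which act with editing factors of the family, 0 were called by limma. Only 1 of the 7 had an unadjusted p below 0.05, beside 5859 of all 14838 features.

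Between 1 h and 6 h, 18 of the 53 rose and 4 fell, beside 25.4% and 17.2% of all features. All 5 CRM splicing factors were called, 4 higher and CAF1 lower, but with 1 array left out CAF1 lost its call in 7 of 9 fits and CFM3A in 3. Of the MORF proteins 3 rose, MORF1 by 0.90 ± 0.28 (SE), MORF8 by 0.72 ± 0.17 (SE) and MORF9 by 0.42 ± 0.15 (SE). With 1 array left out, MORF8 kept its call in 9 of 9 fits, MORF1 in 6 and MORF9 in 3. At 1 h against the control 0 of the 53 rose and 2 fell (3.77%, beside 2.2% of all features), the sigma factor genes SIG1 (-0.74 ± 0.13) and SIG4 (-0.60 ± 0.16), of which SIG4 lost its call in 7 of the 9 fits with 1 array left out. Between OE and Col-0 over all conditions 0 of the 53 were called by limma, with an unadjusted p below 0.05 for 9, beside the 4.79% called and 3367 of 14838 with such a p among all features.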

How the data were processed

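The submitters' processing notes name MAS5 and no version of it. It gave the deposited signal intensity per feature, not on a log scale, which the authors scaled to a mean of 500 without the extreme 2% at either end of each array. A deposited annotation table gave titles, loci and compartments, and 90 of its columns of values per array were not used. Members and lists were chosen with earlier results of these data known.

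Signals were taken to log2. Features at the 40th percentile of their array on at least 3 of 18 arrays were kept, which left 14838. limma (version 3.58.1, R 4.3.3) was fitted with 1 mean per group, a variance trend and Benjamini-Hochberg adjustment over the kept features, to the 9 Col-0 arrays (6 residual degrees of freedom) for contrasts within Col-0 and to all 18 arrays (12) otherwise. The models were tested on simulated data. Other fits, scalings, filters and the loss of each array were tried (closing section). A fold against a group below the 40th percentile on all its arrays is a bound set at that percentile.

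Named were PPR336, PPR40, every listed pentatricopeptide repeat gene called in a Col-0 contrast without overlap of the groups (at most 8 in each direction), and called genes of the other lists, chosen after their values were seen. Of the 71 listed symbols, 58 matched the reference table at their locus, and roles are given only for those. No sequences were used. No block for the replicate letters was used, since of 9 same-letter pairs in Col-0 1 had deviations correlated above 0.1 (range -0.08 to 0.10). Plots were made in Python 3.11.15 (matplotlib 3.10.9).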

Additional observations from a re-analysis of the deposited data

Results flagged for a closer look

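The OE response minus the Col-0 response at 6 h was tested by limma with the labels as given. It passed at an adjusted p below 0.05 for 5 of 36 pentatricopeptide repeat genes of the list (13.9%, all negative). Of 53 partner genes, 11 passed. Of all features, 13.1% were called negative and 10.1% positive. The log2 values were -3.67 for AT4G18520, whose size is unresolved because the Col-0 controls were dim, -1.55 for OTP84, -1.49 for RARE1, -1.16 for LPA66 and -1.05 for OTP51. RARE1 was also dim and reached the 40th percentile on 13 of 18 arrays. Among the partner genes the negative values were -2.04 for PTAC6, -1.43 for MDA1, -1.39 for CAF2, -1.25 for CFM2, -0.98 for PTAC5, -0.97 for SIG4, -0.96 for PDE312 and -0.53 for CP31B. The positive values were 2.98 for SIG5, 1.74 for MGP3 and 0.88 for CSP41B. All of them rest on OE arrays, 6 of 9 of which correlated best with an array that carries a different treatment label. Without those 6, in a fit that has 1 OE array at 6 h and assumes that it varies like the other groups, RARE1 (adjusted p = 0.125), CP31B (0.155) and PTAC5 (0.0582) no longer passed. With 1 array left out in turn, LPA66, OTP51, PTAC6, CAF2, CFM2 and SIG5 passed in 18 of 18 fits. OTP84 and AT4G18520 missed the threshold without OE control array B, OE 6 h array A or OE 6 h array B (adjusted p of at most 0.0582 and 0.0558), and MDA1, MGP3, RARE1, CP31B, SIG4, PDE312, PTAC5 and CSP41B in 1 to 13 of 18. Groups of 3 arrays were not searched for single outlying arrays. In LPA66 all OE controls lay above all Col-0 controls, and all OE arrays at 6 h lay below all Col-0 arrays at 6 h. Whether genotype or the OE treatment labels underlie the interactions was not tested.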

How the results depend on the processing

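The precision is limited by 3 arrays per group. With all 18 arrays in the fit of the Col-0 contrasts, PPR336 at 6 h against control stayed at -0.55 on the log2 scale but lost its call (adjusted p = 0.0676), so 0 members were lower, and the listed genes lower numbered 0 at 1 h and 0 at 6 h. In that fit 0 of all 14838 features were called lower at 1 h and 1022 at 6 h, and it takes its spread also from the OE arrays. With the letters as a replicate block, PPR336 kept both its calls, at log2 changes of -0.55 (adjusted p = 0.0342) against the control and -0.58 (adjusted p = 0.0194) against 1 h, and the block changed no other call of PPR336. The letters share only a name. The interaction at 6 h passed with quantile normalization (log2 value 0.87, 1 member called) and with the 60th percentile filter (0.78, 1 member called), which tests fewer features. Quantile normalization gave 2 listed genes lower at 6 h against control, beside 2205 of all 14838 features. Subtraction of array medians gave 2 there (2426 of all), 0 lower at 1 h (134 of all) and 3 higher between 1 h and 6 h (2489 of all). As deposited, these counts of all features were 2018, 326 and 3769. Under these scalings PPR336 changed by -0.62 and -0.63 against the control and by -0.66 and -0.77 against 1 h. The share of higher among all called features was 62.4%, 70.9% and 83.5% at 1 h, 59.6%, 52.2% and 41.2% between 1 h and 6 h, and 62.0%, 50.2% and 35.0% for OE against Col-0, as deposited, after quantile normalization and after subtraction of medians. Without the 6 OE arrays of doubtful label, which was chosen after seeing the data and leaves 2 OE controls and 1 OE array at 6 h, the OE difference of PPR336 from Col-0, treatment not modelled, was -0.052 and 8 listed genes had a negative interaction, a count that rests on 1 array. Without those 6 arrays, a larger share of all features was also called with a negative interaction at 6 h than in the main fit. The count of 8 is therefore not particular to the listed genes. The cause of these shifts was not tested.

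With each array left out in turn, PPR336 changed by -0.60 to -0.51 at 6 h against control (0 to 1 member lower), by -0.77 to -0.46 between 1 h and 6 h (0 to 1 lower) and by -0.10 to 0.21 at 1 h. The OE difference was 0.02 to 0.16, the OE changes 0.32 to 0.59 at 1 h and 0.02 to 0.42 at 6 h, and the interactions 0.26 to 0.57 at 1 h and 0.57 to 0.97 at 6 h (0 to 1 called). The listed genes called were 0 to 1 lower at 1 h, 2 to 5 higher and 0 to 1 lower at 6 h, 5 to 9 higher and 1 to 4 lower between 1 h and 6 h, and 2 to 7 with a negative interaction at 6 h. Over the same fits, 93 to 490 of all 14838 features were called lower at 1 h. At 6 h against the control, 1680 to 2359 were called higher and 1518 to 1996 lower. Between 1 h and 6 h, 3046 to 4002 were called higher and 2113 to 2697 lower. With a negative interaction at 6 h, 720 to 3267 were called. For single listed genes other than PPR336, only the 64 results called in the main fits were recomputed, on mostly the same arrays. By this choice no call could be gained and a reversal was unlikely. Of 1226 recomputed values, 1010 kept direction and call, 216 lost the call and 0 reversed. The remaining alternatives (16 added to the signal, no filter, no variance trend, members by mean level, all titled features) changed no call of PPR336.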
